A study of Xenopus laevis with 6 samples.

Results

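The core spliceosome and hnRNP genes described here are the 69 genes, of 11303 with 1 gene name on the array, whose symbol begins with snrp, prpf, sf3a, sf3b, hnrnp or u2af, or with lsm and a digit. They were chosen by name alone, and the L and S copies that *Xenopus laevis* keeps from its ancestral genome duplication were counted as separate genes. They are represented by 120 probe sets, and each gene was described by the probe set with the highest mean over the 6 arrays. A further 3 probe sets that carry the names of both copies of *hnrnpa2b1*, *prpf4b* or *snrpd3* were left out. Tadpoles at NF stage 54, for which no genotype or sex is given, were injected into the brain ventricle (i.c.v.) either with 0.6% saline, as the control group, or with rxLeptin, a recombinant leptin of this species, at 20 ng per g of body weight. The preoptic area, hypothalamus and pituitary were dissected 2 h later, and 3 pools of 3 brains per treatment were hybridized to Affymetrix *X. laevis* Genome 2.0 arrays. A pool averages its animals, and nothing states whether pools came from separate clutches, so p-values measure the spread between these pools only.

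The spliceosome removes introns from nuclear transcripts and is built from small nuclear RNAs bound by proteins (snRNPs) and from further protein factors that join and leave during each round of splicing. A ring of Sm proteins holds most of these RNAs, a related ring of LSm proteins holds the U6 RNA, SF3A, SF3B and U2AF recognize the end of the intron, and PRPF factors assemble and drive the catalytic machine. The hnRNP proteins coat nuclear transcripts and shift the choice of splice sites, and in neurons several of them also accompany mRNA to dendrites and axons.

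All values are log2 expression values after Robust Multichip Average, so that a difference of 1 is a doubling of signal, and fold changes are rxLeptin over saline from a weighted limma fit. The array weights were uneven, and 76.2% of the saline weight lay on saline pool 2, whereas saline pools 1 and 3 had 12.5% and 11.3%. The 3′ signal of the *actin* array control exceeded its middle signal by 2.83, 1.61 and 0.77 in saline pools 1 to 3 and by 0.67, 0.60 and 0.66 in the rxLeptin pools. For the *gapdh* control, 3′ over 5′, the differences were 2.71, 1.18 and 1.02 in the saline pools and 1.11, 0.94 and 0.93 in the rxLeptin pools. For the *ef1a* control, 3′ over 5′, they were 4.47, 3.72 and 3.05 in the saline pools and 2.93, 2.83 and 3.24 in the rxLeptin pools. In the *ef1a* control rxLeptin pool 3 thus exceeded saline pool 3. The saline pools therefore differed among themselves in these controls, which read the evenness of RNA along a transcript, by more than the rxLeptin pools did. Neuronal markers had a mean over 14 genes of 10.98 to 11.25 in the pools, although *syt1.L* (4.66 to 5.17) and *syn2.L* (5.62 to 6.08) had low signals. Of 15 names listed for the hypothalamus and preoptic area, 7 were found, among them *nkx2-1*, *trh* and *pomc*. Of 11 pituitary names, 6 were found. Signals were low for both copies of *rax* (4.96 to 5.23), *six3.S* (5.41 to 5.89) and *isl1.S* (6.11 to 6.49) of the hypothalamic list. Low signals were also seen for *fshb.L* (4.37 to 4.88), *gnrhr.L* (5.42 to 5.76) and *pitx1.L* (5.96 to 6.36) of the pituitary list. Markers of muscle, a tissue outside the brain, had a mean over 9 genes of 6.49 to 6.55 in the saline pools and 6.23 to 6.36 in the rxLeptin pools, with 2 of the 9 called lower, and the mean of 8 pituitary genes was 8.45 to 8.75 and 7.98 to 8.47, with 1 called lower. Over all 8 marker lists, with 72 genes of which 37 were tested, 3 were called higher and 4 lower. The others were the radial glia and progenitor genes *sox3.L* (1.29) and *nes.S* (0.53), called higher, and *notch1.S* (-0.56), called lower, and the blood gene *alas2.L* (0.69), called higher. All of these had overlapping pools, and *nes.S* had low signals (5.23 to 6.26). The other copies *sox3.S* (0.14) and *alas2.S* (-0.058) were not called. The part of these controls and markers in the results below was not tested. A fit that took the *actin* difference as a covariate is given, but it cannot fully separate that difference from treatment.

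A few splicing factor and hnRNP genes passed the test in each direction. Of the 34 that passed the variance filter, 7 were called higher (*lsm12.L*, *lsm4.S*, *prpf31.S*, *hnrnpa1.L*, *prpf19.L*, *hnrnpa1.S* and *hnrnpa0.S*) and 3 lower (*hnrnpa2b1.L*, *lsm2.L* and *sf3b6.S*) at an adjusted p under 0.05. These are 20.6% and 8.82% of the tested genes, beside 12.2% higher and 10.4% lower among the tested genes of all 11303, each by 1 probe set, and 14.6% and 9.91% among all 16269 tested probe sets. In bulk tissue, fewer cells of a type and less RNA per cell cannot be told apart. The pools of each group did not overlap for 29 genes, 14 of them with rxLeptin higher (20.3% of the 69) and 15 with rxLeptin lower (21.7%), where all named genes gave 11.1% and 16.6%. The median log2 fold change of the 69 genes was 0.027, in a range of -0.78 to 1.19, and that of all named genes was -0.024. No probe set of the array was called without array weights, without saline pool 1 or without saline pool 2, although 4262, 1740 and 1867 of the 16269 had an unadjusted p under 0.05 in limma. Of the 34 genes, 14, 4 and 7 had such a p in these fits, in place of 20.

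**Figure D1:**
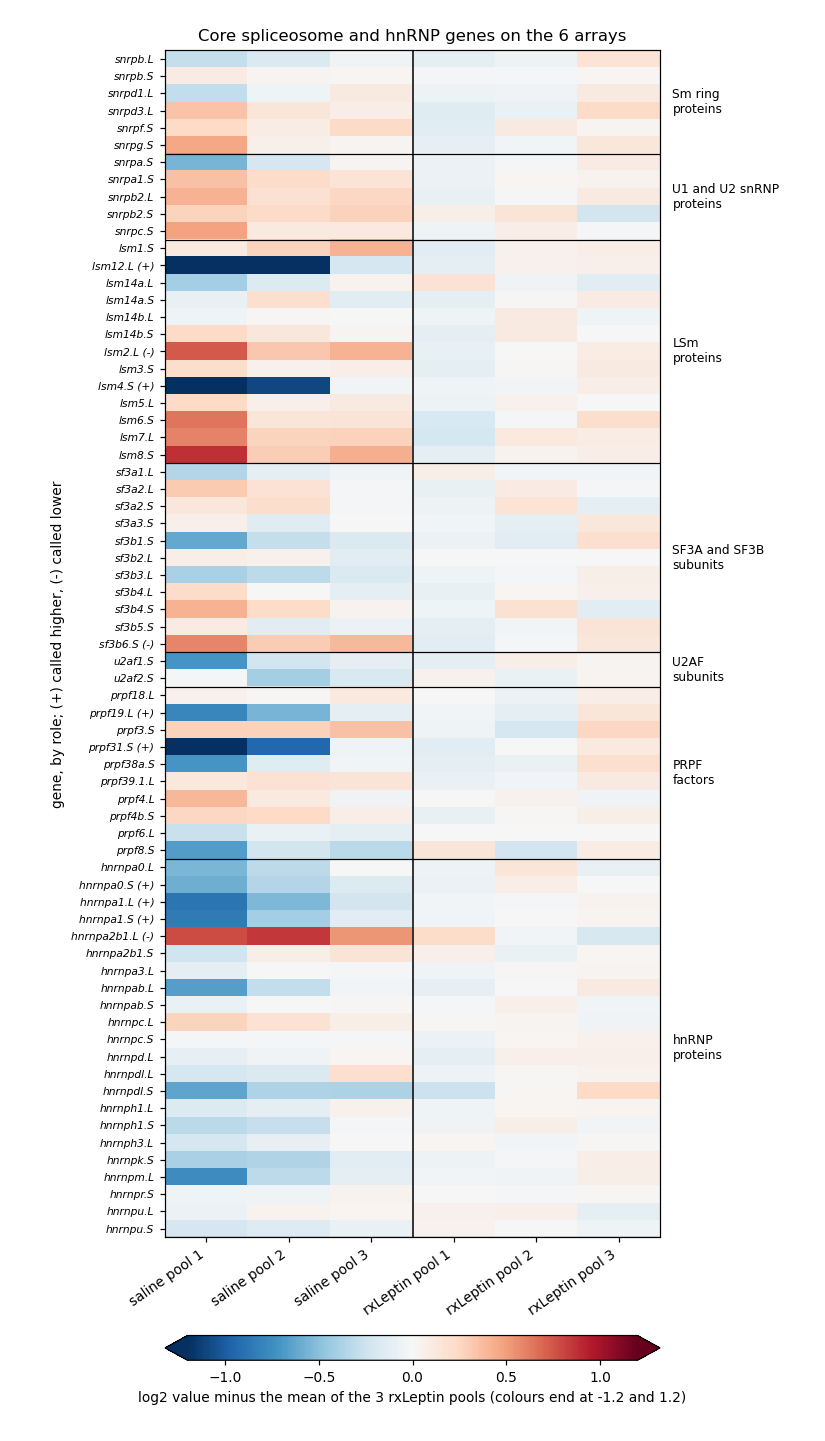
Each row is 1 of the 69 genes and each column 1 of the 6 pools, and the colour gives the log2 value minus the mean of the 3 rxLeptin pools of that gene. Saline pools 1 and 2 depart most from the rxLeptin pools, in blue for *lsm12.L*, *lsm4.S* and *prpf31.S* and in red for *hnrnpa2b1.L*, and saline pool 3 is paler in most rows.

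The saline pools stood at different distances from the rxLeptin pools. Saline pool 1 had the lowest of the 6 values for 33 of the 69 genes (47.8%, against 22.3% of all named genes) and the highest for 22 (31.9%, against 39.5%). Saline pool 3 lay within the range of the rxLeptin pools for 28 genes (40.6%, against 41.5% of all named genes), above it for 22 and below it for 19. All 7 genes called higher had their lowest value in saline pool 1. These genes were selected for low saline values, so a saline pool is likely to hold their lowest value. The share among all named genes called higher was not counted.

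The Sm ring proteins showed no called change. The group held 6 genes (*snrpb.L*, *snrpb.S*, *snrpd1.L*, *snrpd3.L*, *snrpf.S* and *snrpg.S*), of which only *snrpd3.L* varied enough to be tested. In *snrpb.S* the values were 13.33, 13.26 and 13.25 in the saline pools and 13.22, 13.22 and 13.25 in the rxLeptin pools. The groups of pools met in all 6 genes, and the log2 fold changes lay between -0.22 and 0.13 with a median of -0.074. In *snrpd3.L* the log2 fold change was -0.22 (standard error 0.13, limma adjusted p = 0.19).

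Proteins particular to the U1 and U2 snRNPs, which bind the start of the intron and the branch site, comprised 5 genes, and none was called. For *snrpc.S*, the U1 C protein, the values were 13.0, 12.63 and 12.64 in the saline pools and 12.47, 12.60 and 12.49 in the rxLeptin pools. Each saline value lay above each rxLeptin value, although the probe set was too even to be tested and had a log2 fold change of -0.13. The same separation held for *snrpa1.S* and for both copies of *snrpb2*, which encode proteins of the U2 snRNP, with log2 fold changes of -0.23, -0.24 (L) and -0.16 (S). Only *snrpb2.L* of these was tested (standard error 0.12, limma adjusted p = 0.13). The fifth gene, *snrpa.S* of the U1 snRNP, had a log2 fold change of 0.20 with overlapping pools. The pools were thus apart with rxLeptin lower for 4 of the 5 genes (80.0%), against 16.6% of all named genes. Other probe sets did not show this separation. The second probe set of *snrpc.S* had overlapping pools and the opposite sign, at 0.20 (limma adjusted p = 0.201). All other probe sets of *snrpa1.S* had overlapping pools, between -0.16 and -0.049.

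Of the 13 LSm genes, 9 were tested, 2 were called higher (22.2% of the 9) and 1 lower (11.1%), beside 12.2% and 10.4% of all tested named genes. Of the 7 genes of the LSm2 to LSm8 ring, which caps the U6 RNA, 6 had a log2 fold change below 0. Of all 11303 named genes, 6162 had a log2 fold change below 0. The other ring gene, *lsm4.S*, was called higher. The pools were apart with rxLeptin lower for 4 of the 7 (57.1%), against 16.6% of all named genes. *lsm2.L* was called lower, with values of 12.28, 11.87 and 11.96 in the saline pools and 11.46, 11.55 and 11.64 in the rxLeptin pools. The pools did not overlap, and the log2 fold change was -0.40 (standard error 0.12, limma adjusted p = 0.0375), or 0.759 times the saline level. A like separation was seen in *lsm8.S*, the subunit that sets the nuclear ring apart from the cytoplasmic one, with 11.33, 10.74 and 10.88 in the saline pools and 10.33, 10.49 and 10.53 in the rxLeptin pools. Its log2 fold change of -0.39 (standard error 0.14) missed the threshold at a limma adjusted p of 0.055, but both of its other probe sets were called lower, at -0.45 and -0.47. The pools were apart in the probe set at -0.45 and overlapped in the one at -0.47. In *lsm7.L* and *lsm5.L* the pools also stood apart with rxLeptin lower, at -0.29 and -0.074, whereas in *lsm6.S* (-0.25) and *lsm3.S* (-0.087) they overlapped. The second probe set of *lsm3.S* had separated pools with rxLeptin lower and was not called, at -0.32 (limma adjusted p = 0.0736). The -0.29 of *lsm7.L* was not called, and both other probe sets of that gene were called higher, at 0.48 and 0.50, with overlapping pools. The direction of *lsm7.L* therefore depended on the probe set. The probe sets called higher had lower signals, at 8.64 to 9.49 and 5.60 to 6.33, against 10.70 to 11.51 in the representative one. For *lsm5.L* the values were 12.16, 11.98 and 12.03 after saline and 11.86, 11.97 and 11.92 after rxLeptin. Relative to the rxLeptin mean, the median of the 7 ring genes lay at 0.60, 0.14 and 0.15 in saline pools 1 to 3, and saline pool 1 was the highest of all pools for 6 of them, as it was for 39.5% of all named genes.

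*lsm4.S*, alone among the genes of the same ring, had a positive log2 fold change in its representative probe set. Its values were 10.19, 10.42 and 11.48 in the saline pools and 11.46, 11.48 and 11.59 in the rxLeptin pools. Saline pools 1 and 2 were low, and saline pool 3 lay inside the rxLeptin range. The fitted log2 fold change was 0.98 (standard error 0.17, limma adjusted p = 0.00337), or 1.97 times the saline level, and it was 0.031 against saline pool 3 alone.

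The remaining LSm genes act outside the U6 ring. *lsm1.S*, of the cytoplasmic ring that takes part in mRNA decay, had separated pools with rxLeptin lower and a log2 fold change of -0.26 that was not called (limma adjusted p = 0.114). *lsm12.L*, whose fly counterpart is a partner of ataxin-2 in translation, had the largest change of the 69 genes. The values were 8.72, 9.14 and 10.20 in the saline pools and 10.28, 10.45 and 10.46 in the rxLeptin pools. The pools did not overlap, but saline pool 3 lay far closer to the rxLeptin pools than to the other saline pools. The log2 fold change was 1.19 (standard error 0.18, limma adjusted p = 0.0021), 2.29 times the saline level, and the second probe set of the gene was called higher as well, at 0.63. The 4 copies of *lsm14a* and *lsm14b*, proteins of P-bodies and translational repression, were not called, with overlapping pools and log2 fold changes of -0.14 to 0.18.

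Recognition of the branch site by SF3A and SF3B comprised 11 genes, of which 6 were tested. None was called higher and 1 was called lower (16.7% of the 6), beside 12.2% and 10.4% of all tested named genes. The pools were apart with rxLeptin higher for 3 (27.3% of the 11) and lower for 1 (9.09%), against 11.1% and 16.6% of all named genes. *sf3b6.S*, the small subunit that sits at the branch-site adenosine, had values of 11.14, 10.86 and 10.94 in the saline pools and 10.43, 10.55 and 10.69 in the rxLeptin pools. All saline pools were above all rxLeptin pools, saline pool 3 included. It was called lower at -0.37 (standard error 0.12, limma adjusted p = 0.0432), 0.772 times the saline level. In *sf3b1.S*, the largest subunit and the one that clamps the branch site, the values ran the other way, at 11.93, 12.25 and 12.37 in the saline pools and 12.47, 12.41 and 12.74 in the rxLeptin pools. The pools were apart but the log2 fold change of 0.25 (standard error 0.13) was not called (limma adjusted p = 0.157), and its other 3 probe sets had overlapping pools and values of -0.15 to 0.12. *sf3b3.L* and *sf3a1.L* likewise had separated pools with rxLeptin higher, at 0.29 (limma adjusted p = 0.0776) and 0.13 (not tested). The other 7 genes overlapped, between -0.15 and 0.060, although a second probe set of 1 of them, *sf3a3.S*, had separated pools and was called higher at 0.70 (limma adjusted p = 0.0069).

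The subunits of U2AF, which reads the polypyrimidine tract and the AG at the end of the intron, both had a log2 fold change above 0 and neither was called. *u2af1.S* had values of 10.30, 10.79 and 10.90 in the saline pools and 10.90, 11.08 and 11.05 in the rxLeptin pools. The pools were only just separated, and the log2 fold change was 0.28 (standard error 0.13, limma adjusted p = 0.121). *u2af2.S* had 11.67, 11.29 and 11.51 in the saline pools and 11.74, 11.61 and 11.72 in the rxLeptin pools, with saline pool 2 the lowest, and was not tested. Its fitted log2 fold change of 0.30 became 0.072 without saline pool 2.

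Of the 10 PRPF factors, 4 were tested, and 2 of these were called higher and none lower, beside 12.2% and 10.4% of all tested named genes. *prpf31.S*, which joins the U4/U6 and U5 snRNPs into one particle, had values of 8.92, 9.35 and 10.24 in the saline pools and 10.16, 10.29 and 10.41 in the rxLeptin pools. Saline pool 3 lay within the rxLeptin range, and saline pools 1 and 2 lay below it. The log2 fold change was 0.87 (standard error 0.17, limma adjusted p = 0.00511), 1.83 times the saline level. Its other 2 probe sets were tested and not called, with overlapping pools, at 0.16 (limma adjusted p = 0.391) and 0.23 (0.229). Both had low signals, at 5.57 to 6.06 and 5.54 to 6.25. *prpf19.L*, the ubiquitin ligase that gives its name to an activating complex, had 10.45, 10.68 and 11.11 in the saline pools and 11.20, 11.12 and 11.38 in the rxLeptin pools. The pools did not overlap, saline pool 3 stood just below the lowest rxLeptin pool, and the log2 fold change was 0.48 (standard error 0.13, limma adjusted p = 0.0238). Both of its probe sets were called higher.

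The other 8 PRPF genes were not called. *prpf3.S*, a protein of the U4/U6 snRNP, had 9.98, 9.98 and 10.05 in the saline pools and 9.64, 9.50 and 9.95 in the rxLeptin pools, a log2 fold change of -0.38 (standard error 0.13) that missed the threshold at a limma adjusted p of 0.052. Here the saline pools lay together and above all rxLeptin pools. The second probe set of *prpf3.S* had overlapping pools and the opposite sign, at 0.29 (limma adjusted p = 0.198), with 8.54, 9.26 and 9.84 after saline and 9.49, 9.47 and 9.85 after rxLeptin. *prpf4b.S*, a kinase of the spliceosome, had 11.66, 11.66 and 11.50 after saline and 11.33, 11.43 and 11.49 after rxLeptin, separated but too even to be tested, and *prpf39.1.L* was also separated with rxLeptin lower (-0.19). *prpf8.S*, the scaffold of the catalytic center, had a log2 fold change of 0.21 with overlapping pools (limma adjusted p = 0.287), and the 4 genes *prpf18.L*, *prpf38a.S*, *prpf4.L* and *prpf6.L* had values between -0.11 and 0.15.

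**Figure D2:**
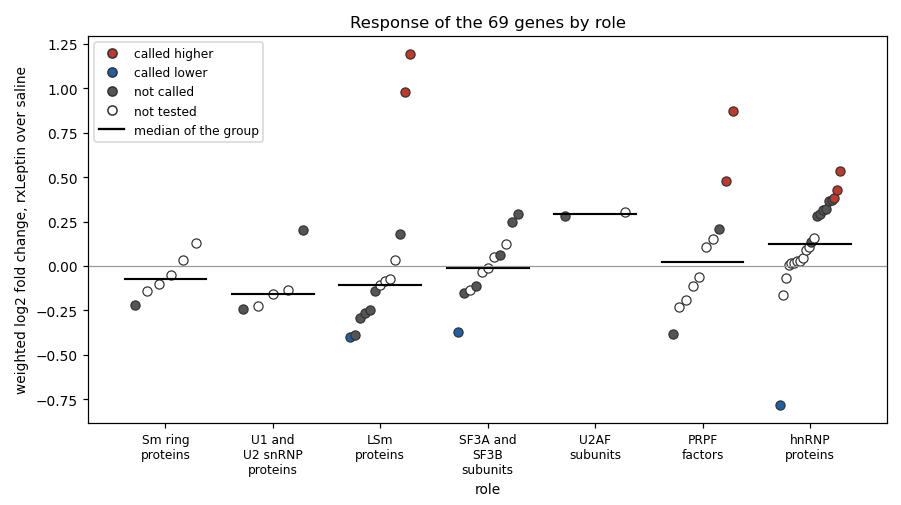
Weighted log2 fold changes (vertical axis) of the 69 genes by role (horizontal axis), 1 point per gene, with the median of each group as a line. The hnRNP genes lie mostly above 0, with 19 of 22 positive and a median of 0.12, and the U1 and U2 snRNP genes mostly below it, with 4 of 5 negative and a median of -0.16.

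The hnRNP genes were the largest group, with 22 genes of which 19 had a log2 fold change above 0, as had 5141 of all 11303. Of 11 tested, 3 were called higher (27.3%) and 1 lower (9.09%), where the tested genes with 1 name gave 12.2% and 10.4%. The pools were apart with rxLeptin higher for 7 (31.8%) and lower for 2 (9.09%), against 11.1% and 16.6% of all named genes, and the median log2 fold change was 0.12. Relative to the rxLeptin mean, the median of the group lay at -0.21, -0.14 and -0.011 in saline pools 1 to 3, while that of all named genes lay at 0.084, 0.012 and 0.015. Saline pool 1 was the lowest of the 6 pools for 17 of the 22 genes (77.3%, against 22.3% of all named genes). The *actin* control differences of saline pools 1 to 3, which stand above, fell in the same order of size. Their part in the result of this group was not tested, because the fit with the *actin* covariate was not summarized by group.

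Both copies of *hnrnpa1*, a repressor of exon inclusion, were called higher. *hnrnpa1.L* had values of 12.62, 12.95 and 13.26 in the saline pools and 13.46, 13.48 and 13.53 in the rxLeptin pools. *hnrnpa1.S* had 11.96, 12.41 and 12.69 in the saline pools and 12.78, 12.81 and 12.84 in the rxLeptin pools. In these probe sets the rxLeptin pools lay close together and above every saline pool. All probe sets of both copies bear endings of probe sets that can bind several transcripts. Whether they read the copies separately was not tested. Of the other 2 probe sets of *hnrnpa1.L*, 1 was called higher at 0.77, and the other was too even to be tested and had -0.070, with 12.92, 12.99 and 12.80 in the saline pools and 12.88, 12.89 and 12.87 in the rxLeptin pools, which overlapped. The log2 fold changes were 0.53 (standard error 0.13, limma adjusted p = 0.0124) and 0.43 (standard error 0.13, limma adjusted p = 0.0336), or 1.45 and 1.34 times the saline level. *hnrnpa0.S*, a related protein that binds AU-rich mRNA, was also called higher, with 10.44, 10.68 and 10.87 after saline and 10.95, 11.10 and 11.03 after rxLeptin. Its pools did not overlap, and its log2 fold change was 0.38 (standard error 0.12, limma adjusted p = 0.0399), whereas *hnrnpa0.L* had 0.36 with overlapping pools and was not called (limma adjusted p = 0.0596).

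*hnrnpa2b1.L*, which encodes a protein that carries mRNA along neuronal and glial processes, was the hnRNP gene called lower. Its values were 10.67, 10.74 and 10.42 in the saline pools and 10.11, 9.86 and 9.70 in the rxLeptin pools. All 3 saline pools were higher than all rxLeptin pools, and saline pool 3 was the closest of them. The log2 fold change was -0.78 (standard error 0.13, limma adjusted p = 0.00327), 0.581 times the saline level. These values hold for the representative probe set only. The other probe set of the gene was called higher, at 0.49 (limma adjusted p = 0.046), with overlapping pools, so the direction of the gene is not settled. The other hnRNP gene with separated pools and lower rxLeptin values was *hnrnpc.L* (-0.16, not tested), whose protein packages nascent transcripts.

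Of the hnRNP genes that were not called, *hnrnpk.S*, *hnrnpm.L*, *hnrnpdl.S* and *hnrnpu.S* had separated pools with rxLeptin higher, at 0.32, 0.32, 0.37 and 0.16. The first 3 of these had limma adjusted p-values of 0.0634, 0.0795 and 0.0647, and *hnrnpu.S*, a scaffold protein of the nucleus, was too even to be tested. *hnrnpa3.L* varied little, at 13.55, 13.66 and 13.64 in the saline pools and 13.62, 13.67 and 13.69 in the rxLeptin pools. The remaining 10 genes, leaving aside *hnrnpa2b1.S*, all had overlapping pools, with log2 fold changes from 0.0050 in *hnrnpu.L* to 0.29 in *hnrnpab.L*, a gene of mRNA transport in neurons.

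**Figure D3:**
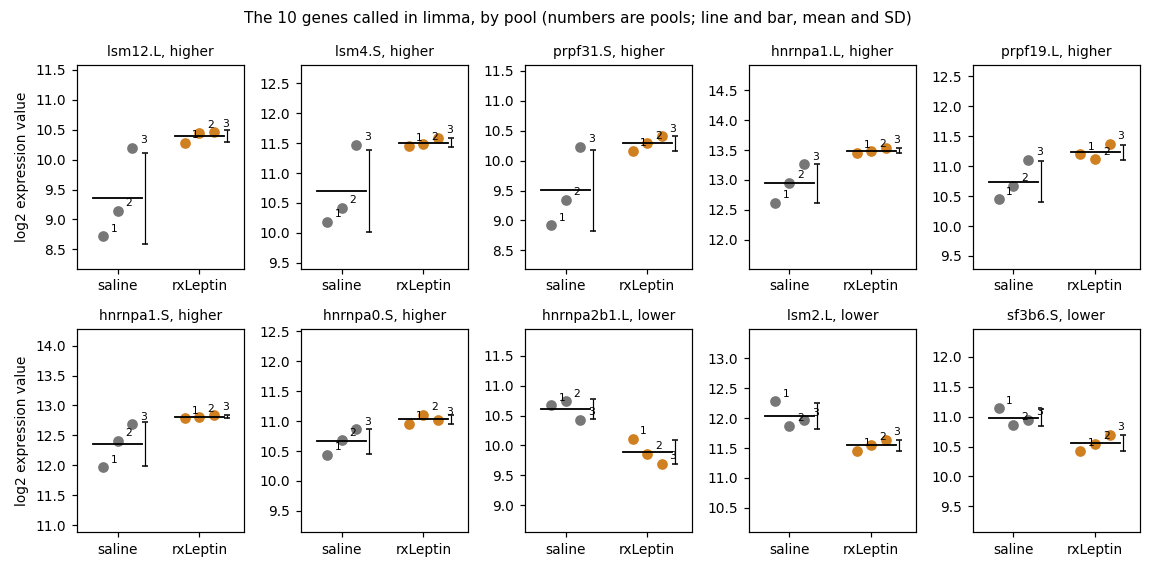
Log2 expression values (vertical axes, each spanning the same range) of the 10 called genes in the saline and rxLeptin pools, with the mean and the SD of each group. Saline pool 1 is the lowest point in each of the 7 genes called higher, and in *lsm4.S* and *prpf31.S* saline pool 3 lies among the rxLeptin pools.

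When 1 pool was left out at a time, the calls depended on the pool. *lsm12.L*, *lsm4.S*, *prpf31.S* and *hnrnpa2b1.L* were called without saline pool 3 and without each rxLeptin pool, whereas *prpf19.L* (limma adjusted p = 0.0517) and *hnrnpa1.L* (0.0603) lost the call without rxLeptin pool 2. *hnrnpa1.S* lost it without rxLeptin pool 1 (limma adjusted p = 0.0712) or 2 (0.126), and *hnrnpa0.S* when any 1 of these 4 pools was left out (0.0676 to 0.195). *lsm2.L* (limma adjusted p = 0.0594 to 0.149) and *sf3b6.S* (0.0789 to 0.197) lost it without saline pool 3 and without rxLeptin pools 1 and 2. No gene was called without saline pool 1 or without saline pool 2, where 4 and 7 of the 34 had an unadjusted p under 0.05 in limma. Without saline pool 1 the log2 fold changes were 0.73 for *lsm12.L*, 0.54 for *lsm4.S*, 0.48 for *prpf31.S*, 0.37 for *hnrnpa1.L*, 0.28 for *prpf19.L*, 0.26 for *hnrnpa1.S* and 0.28 for *hnrnpa0.S*, and -0.67 for *hnrnpa2b1.L*, -0.38 for *lsm2.L* and -0.37 for *sf3b6.S*. Without saline pool 2 that of *lsm4.S* was 0.66.

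The called genes were also set, without array weights, against saline pool 3 alone, the saline pool whose array controls were nearest to those of the rxLeptin pools, a comparison chosen after the values were seen. The 7 genes called higher then had log2 fold changes of 0.20 (*lsm12.L*), 0.031 (*lsm4.S*), 0.051 (*prpf31.S*), 0.23 (*hnrnpa1.L*), 0.12 (*prpf19.L*), 0.12 (*hnrnpa1.S*) and 0.16 (*hnrnpa0.S*). The 3 genes called lower had -0.53 (*hnrnpa2b1.L*), -0.41 (*lsm2.L*) and -0.39 (*sf3b6.S*), against -0.78, -0.40 and -0.37 in the full fit. In the fit with the *actin* covariate, the values were 0.065 to 0.27 for the 7 genes and -0.57, -0.32 and -0.34 for the 3, and none was called (lowest limma adjusted p = 0.923). None of the 16269 tested probe sets of the array was called in that fit either. The *actin* difference was larger in every saline pool than in any rxLeptin pool, so the fit cannot fully separate it from treatment. With 1 control pool no spread within the saline group is measured, and no gene was called.

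Different probe sets of a gene did not always give the same answer. Of the 69 genes, 30 had more than 1 probe set, in 14 of these the probe sets differed in the sign of the log2 fold change, and in 10 they were more than 0.5 apart. In *hnrnpa2b1.L* and *prpf6.L* 1 probe set was called higher and another lower. The second probe set of *hnrnpa2b1.L*, which shares its cluster number with the first and bears the ending that Affymetrix gives to probe sets matching several transcripts of a gene, had 8.98, 9.54 and 10.23 in the saline pools and 10.13, 10.05 and 9.79 in the rxLeptin pools. Here the pools overlapped, saline pool 3 was the highest of all 6, and the log2 fold change was 0.49 (standard error 0.16, limma adjusted p = 0.046), against -0.78 for the representative probe set. Across the 120 probe sets, 67 were tested, 19 were called higher (28.4%) and 6 lower (8.96%), beside 14.6% and 9.91% of all tested probe sets. Probe sets of 1 gene share their transcript and are not separate genes.

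For *prpf6.L*, a bridge between the U5 and U4/U6 snRNPs, the brightest probe set was too even to be tested (log2 fold change 0.11). Of the other probe sets, 1 had 8.0, 7.65 and 7.34 in the saline pools and 7.27, 7.15 and 6.55 in the rxLeptin pools and was called lower at -0.55 (standard error 0.16, limma adjusted p = 0.0312). The other had 8.17, 8.36 and 8.78 in the saline pools and 8.90, 8.86 and 8.98 in the rxLeptin pools and was called higher at 0.50 (standard error 0.13, limma adjusted p = 0.0164). Both had separated pools, in opposite directions, under 1 gene name. Some genes named after their values were seen show how far the choice of probe set matters. In *lsm7.L* the representative probe set had -0.29 and both others, with lower signals, were called higher, at 0.48 and 0.50. In *hnrnpk.S* the 5 probe sets ranged from 0.0069 to 0.93, and 2 of them, not the representative one, were called higher. Second probe sets of *hnrnpdl.S* and *hnrnpr.S* were called higher as well, at 0.63 and 0.48, where the representative ones were not. By contrast the 3 probe sets of *lsm2.L* lay between -0.40 and -0.26 and the 3 of *lsm8.S* between -0.47 and -0.39.

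**Figure D4:**
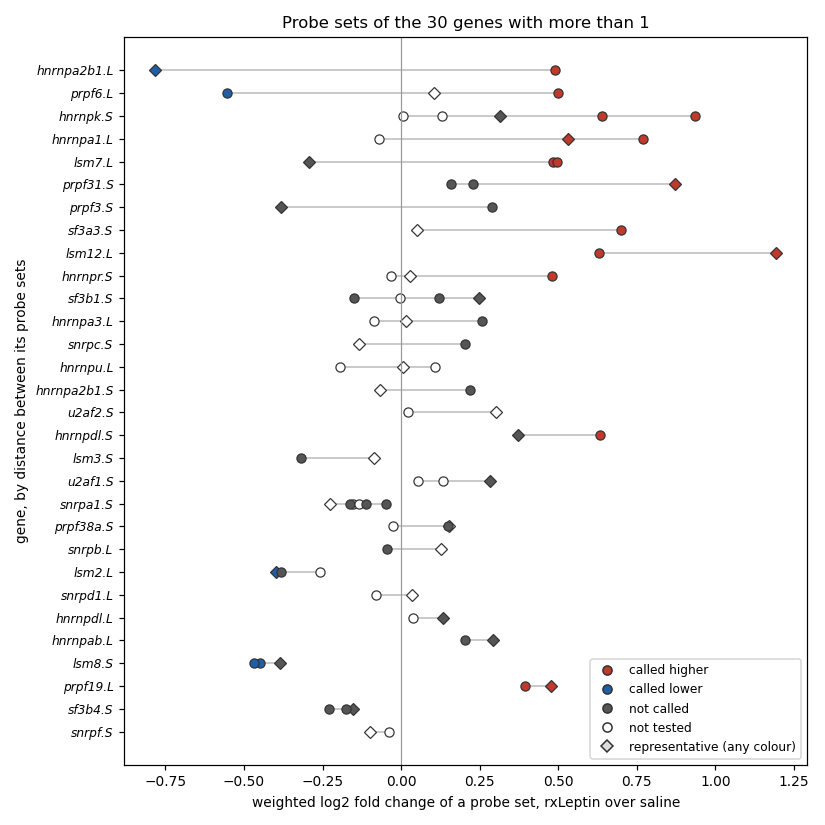
Weighted log2 fold changes (horizontal axis) of all probe sets of the 30 genes with more than 1, with the representative probe set as a diamond and genes ordered by the distance between their probe sets. *hnrnpa2b1.L* spans -0.78 to 0.49 and *prpf6.L* spans -0.55 to 0.50, each with calls in both directions.

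Both the L and the S copy were represented for 14 genes. The copies had log2 fold changes of the same sign in 10 of the 14, and the difference between copies, tested with limma over all 2009 genes with both copies, was called in 1, beside 12.2% of all such genes. This was *hnrnpa2b1*, where L minus S was -1.12, -1.37 and -1.77 in the saline pools and -1.98, -2.10 and -2.36 in the rxLeptin pools. The pools did not overlap, and the difference in response was -0.72 (standard error 0.12, 95% interval -0.99 to -0.44, limma adjusted p = 0.0275). The call was lost without saline pool 1 (limma adjusted p = 0.545) or 2 (0.627) and without each rxLeptin pool (0.0509 to 0.111), with the difference between -0.84 and -0.53. It also rested on the probe set that stood for the L copy. With the other probe set of *hnrnpa2b1.L*, an alternative added after the values were seen, the difference was 0.56 (standard error 0.14, limma adjusted p = 0.0444), in the opposite direction. The *hnrnpa2b1.S* copy itself had 11.80, 12.11 and 12.19 after saline and 12.09, 11.96 and 12.05 after rxLeptin, with overlapping pools.

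For the other 13 genes no difference between copies was called, which does not show that the copies acted alike. The 95% intervals of L minus S were narrow for *hnrnpa1* (-0.050 to 0.26) and *hnrnpa0* (-0.19 to 0.16) and wide for *lsm14a* (-0.026 to 0.67) and *hnrnpdl* (-0.52 to 0.036). The *hnrnpa1* interval compares probe sets that can bind several transcripts, so it cannot show that the copies responded alike. In *hnrnpab* and *hnrnph1* the interval left out 0 before adjustment (0.036 to 0.49 and -0.33 to -0.0075), with limma adjusted p-values of 0.107 and 0.137.

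**Figure D5:**
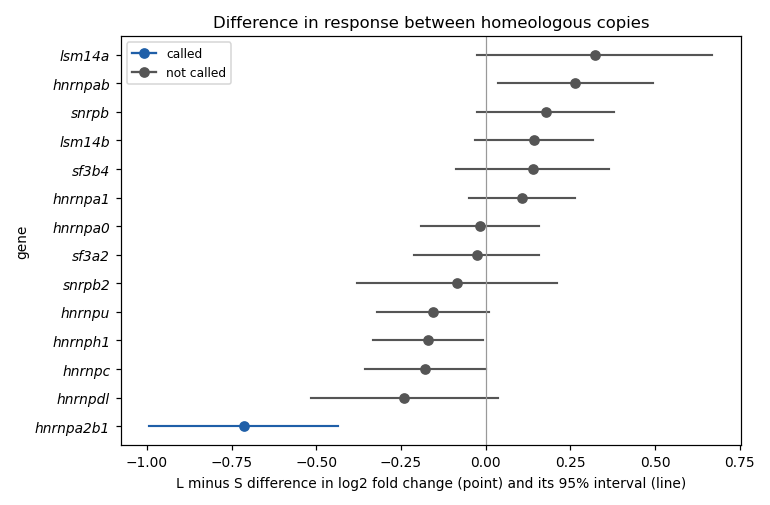
Difference between the L and the S copy in log2 fold change (horizontal axis) for the 14 genes with both copies, as a point with its 95% interval. Only the interval of *hnrnpa2b1*, at -0.99 to -0.44, belongs to a called difference.

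Splicing genes outside these families were counted from a list of 157 genes. Of 76 tested, 16 were called higher (21.1%) and 11 lower (14.5%), where the tested genes with 1 name gave 12.2% and 10.4%. The pools were apart with rxLeptin higher for 31 (19.7% of 157) and lower for 30 (19.1%), against 11.1% and 16.6% of all named genes, and the median log2 fold change was 0.019. *clk1.L*, a kinase that phosphorylates SR proteins, had 7.4, 7.03 and 6.40 in the saline pools and 6.06, 6.09 and 6.17 in the rxLeptin pools, and was called lower at -0.91 (standard error 0.14, limma adjusted p = 0.0024). The SR protein gene *srsf6.L* was called higher at 0.49, while *srsf3.S* was too even in its brightest probe set to be tested (0.074), as was *u2surp.S* (0.16), a protein of the U2 snRNP. The authors list a splicing factor gene under the symbol *sfrs3* among those most repressed by rxLeptin. Other probe sets of *srsf3* are not given here, so its direction is not settled by the brightest one. Among snRNP assembly factors *smn1.S*, the core of the complex that loads Sm rings, was called lower at -0.60, and *sart3.L*, a recycling factor of U6, higher at 0.64. In the catalytic and helicase group *ik.L* was called higher at 0.81 and *cdc40.S* lower at -0.70. The export adaptor *alyref.L* and the junction protein *rnps1.L* were both called higher at 0.88, as were *tia1.L* at 0.89 and the regulators *celf1.L* at 0.87 and *celf3.L* at 0.53. The pools of *tia1.L* overlapped, and its saline pool 3 did not lie below the rxLeptin range. Of the 21 exon junction and export genes 9 were tested, and 4 were called higher (44.4% of the 9) and 1 lower (11.1%), beside 12.2% and 10.4%. Their pools were apart with rxLeptin higher for 3 (14.3% of the 21) and lower for 3 (14.3%), against 11.1% and 16.6% of all named genes. The minor spliceosome gene *snrnp35.L* (-0.36), *txnl4b.S* (-0.56) and *luc7l3.L* (-0.39) were called lower. In limma, none of the 76 was called without array weights or without saline pool 1 or 2, where 29, 9 and 9 had an unadjusted p under 0.05, and 9 were called without rxLeptin pool 2.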

How the data were processed

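Biotin-labeled RNA of 6 pools was hybridized to 6 arrays. The authors deposited log2 values from Robust Multichip Average (affy v1.52.0 in the methods), and the methods then name genefilter (v1.56.0) and limma (v3.30.2) with array weights. Scanner files were not used here, so background correction and scaling are those of the authors.

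The 96 control probe sets were removed. Of the other 32539, 16269 had an interquartile range above its median of 0.173 and were fitted in limma 3.58.1 (R 4.3.3) with treatment as the only term, array weights, eBayes and a Benjamini-Hochberg threshold of 0.05. Array weights were estimated gene by gene, because the default algorithm warned of missing convergence. The counts under both algorithms were known when this was chosen. Log2 fold changes of genes outside the filter come from the same weights, without a test. L minus S differences were fitted in the same way over 2009 genes. Groups of pools are called apart where the lowest value of one group exceeds the highest of the other. For a single probe set, an exact test of 3 against 3 arrays could not give a p under 0.1.

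Gene names come from the platform annotation, of which 15384 of 15495 probe sets with 1 name matched a table of the Xenopus_laevis_v10.1 assembly. A further 279 probe sets have several names and 16765 are unnamed. Signals of different probe sets were ranked only to choose the probe set that stands for a gene and 1 member to describe in each role, and not as levels of RNA. The members and the lists were chosen with earlier results of these data known. Genes named in full were the called members with the largest changes, the member of highest signal in each role, copies called as different and members with probe sets called in both directions, and up to 2 genes for each list of other splicing genes, with *u2surp* and *srsf3*. Other members are given so that each is accounted for. The fits were tested on simulated data holding planted changes, and plots were made in Python 3.11.15 with matplotlib 3.10.9. The simulated noise was independent between probe sets. It held no shift shared by many genes of a pool, so the fits were not tested under such a shift. The number of arrays limits the precision. Alternatives covered the weights, the filter, the representative probe set, the moderation, the scaling, the *actin* covariate, a minimum fold change and each array left out.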

Additional observations from a re-analysis of the deposited data

How the results depend on the processing

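No genes were called, higher or lower (7 and 3 in the reported fit), and no copies (1) or other splicing genes (27), without array weights, with the *actin* covariate, or with both saline pools 1 and 2 left out, an alternative added after seeing the data in which the remaining saline pool is assumed to vary like the others. Without array weights, 14 of the 34 genes, 29 of the 76 other splicing genes and 2 of the 14 copy pairs had an unadjusted p under 0.05 in limma. With the *actin* covariate these counts were 2, 2 and 0. Of all 16269 tested probe sets, 26.2% and 4.26% had such a p in these fits. Leaving out 1 array at a time gave 0 to 6 genes higher, 0 to 5 lower, 0 to 25 other splicing genes and 0 to 1 copies that differed. The counts higher and lower were 15 and 5 with default weights (with 3 copies and 52 other splicing genes), 10 and 5 with weights estimated in reversed order, 3 and 1 without the variance filter, 0 and 0 with a mean of at least 6 in its place, 11 and 5 with a trended and robust variance, 7 and 5 with centred arrays, 13 and 4 with the probe set of largest interquartile range, and 4 and 1 with a log2 fold change of at least 0.5. The genes tested numbered 69 without the variance filter or with the mean in its place, 44 with the largest interquartile range, and 34 in the others. Choosing by interquartile range favours probe sets that vary over the same arrays. Shares over all genes were not counted for these settings. The median log2 fold change of the 69 genes stayed between -0.012, with the *actin* covariate, and 0.060. Genes with separated pools, 14 with rxLeptin higher and 15 lower, numbered 15 to 27 and 15 to 21 when 1 array was left out. Leaving out an array can only keep or add separated genes, so these counts could not fall and do not show stability. They are 21.7% to 39.1% and 21.7% to 30.4% of the 69, against 13.6% to 22.5% and 18.5% to 28.3% of all named genes. The most higher were found without saline pool 3 (27, or 39.1% of the 69, against 22.5% of all named genes). Against saline pool 3 alone they numbered 19 higher and 22 lower (27.5% and 31.9%, against 26.3% and 32.2%). The *hnrnpa2b1* copy difference turned from -0.72 to 0.56 with the other probe set of its L copy. The cause of these shifts was not tested. No paired analysis was possible because the labels give no replicate numbers.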
